A study of Bos taurus with 29 samples.

Results

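The cytokines described here are the ligands and receptor antagonists of the interleukin-1 and interleukin-36 families: IL1A (ENSBTAG00000010349), IL1B (ENSBTAG00000001321), IL18 (ENSBTAG00000000277), IL33 (ENSBTAG00000018347), IL36A (ENSBTAG00000002087), IL36G (ENSBTAG00000002085), IL1RN (ENSBTAG00000019665) and IL36RN (ENSBTAG00000039839). They were taken by gene symbol, 8 genes of the 11479 listed in at least 1 of the 5 deposited tables, each of which sets a lesion stage against control skin. Of these 8 genes, 7 were listed in all 5 tables. IL36A was listed in the M1, M3 and M4 tables and was not analysed in M2 or M4.1.

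The samples were 29 bovine skin libraries sequenced from the 3′ ends of transcripts, from Holstein-Friesian cattle with and without digital dermatitis, a bacterial inflammation of the skin of the foot. The M stages name how a lesion looks: M1 is an early small lesion, M2 an acute ulcer, M3 a healing lesion under a scab, M4 a chronic thickened lesion and M4.1 a chronic lesion with a new active focus. M0 was skin without a lesion, taken above the interdigital cleft. M4.1 had 4 libraries and every other group 5, with 2858186 to 5399615 assigned counts per library. The 22 lesion samples from 6 farms were set against 5 M0 samples from a slaughterhouse, from which 2 M1 samples that the labels do not single out also came. Disease, the site of the skin and the place of collection therefore cannot be told apart in any comparison with M0, and all 5 comparisons share the same M0 libraries. The labels do not say that replicates came from different animals, so the tests measure the spread between these samples, and no age, sex or treatment of the animals is used here.

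In mammals, the IL-1 agonists are alarm signals of the barrier. IL1A and IL33 are held in epithelial cells and released on damage, and IL1B and IL18 are made as precursors that are cut, chiefly by inflammasome caspases, before release. IL36A and IL36G are their counterparts made mainly by keratinocytes. Each branch has a brake of its own: IL1RN occupies the IL-1 receptor without signalling, IL36RN does the same at the IL-36 receptor, and the decoy receptor IL1R2 binds IL-1 without passing on a signal.

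IL1A, IL1B, IL18 and IL1RN rose against control skin in all 5 stages, IL33 in all but M4 and IL36G in all but M4.1. The fitted fold change of IL1RN was below those of IL1A and IL1B in all 5 stages. Tested as a ratio of counts, the smaller rise passed against IL1A in 4 stages and against IL1B in 3. By medians it passed in none, in a test too coarse for so few libraries to decide. IL36RN passed the edgeR test in M4 alone. Counts are given over the 7 members listed in all tables. Against M0, 6 of these 7 rose in M1, where 21.9% of all 10371 genes tested were higher. In M2 the count was 6 of 7 (21.7% of all genes), in M3 it was 6 of 7 (20.4%), in M4 it was 6 of 7 (21.3%), and in M4.1 it was 5 of 7 (20.2%). None of the 7 fell in any stage, while of all genes 21.1% were lower in M1, 20.5% in M2, 19% in M3, 21.1% in M4 and 18.9% in M4.1. The median log2 fold change of the 7 was 2.60 in M1, 2.4 in M2, 2.2 in M3, 2.3 in M4 and 2.26 in M4.1, while the median over all genes lay between -0.02 and 0 in every stage, to 2 decimals. Calls are edgeR quasi-likelihood tests at an adjusted p under 0.05, with the Benjamini-Hochberg adjustment over all genes of the fit.

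**Figure D1:**
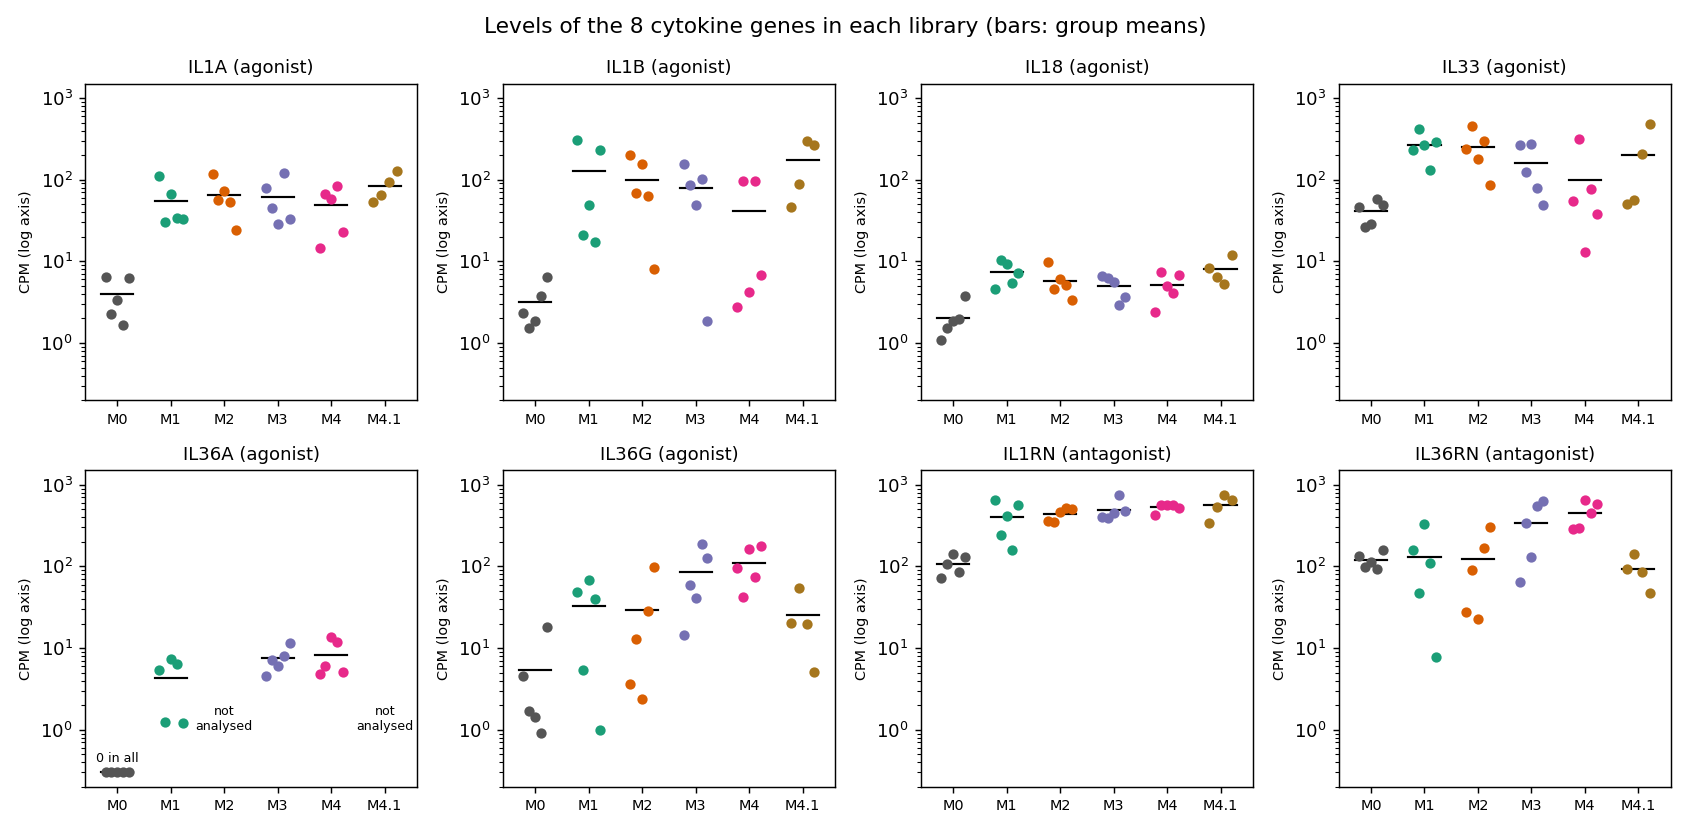
Level (CPM, log axis) of each cytokine gene in every library, by group; points are libraries, bars are group means, and the 5 M0 libraries with 0 counts of IL36A are drawn at the foot of its panel. IL1A and IL1RN show every lesion library above every M0 library, while IL36RN spans the M0 range in M1 and M2 and overlaps and reaches below it in M4.1.

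IL1A, the IL-1 form that is active without cleavage, was low in control skin and high in every lesion library. In CPM, the count relative to the library's total scaled for composition, the 5 M0 libraries held 6.38, 2.29, 3.32, 1.66 and 6.26. M1 held 110, 30.7, 66.3, 33.7 and 33.1, and M2 held 118, 56.7, 73.4, 53.4 and 24.2. Even the lowest of these was above the highest M0 library. M3 held 78.2, 44.8, 28.5, 121 and 32.8, M4 held 14.4, 66.1, 58.1, 83.9 and 22.9, and M4.1 held 53.7, 64.7, 94.3 and 127. The ranges of lesion and control skin did not overlap in any stage, as was so, in the higher direction, for 14.8% of all genes in M1, 15.8% in M2, 12.6% in M3, 14.4% in M4 and 17.5% in M4.1. The log2 fold change was 3.76 ± 0.55 (SE) in M1, 4.02 ± 0.56 in M2, 3.92 ± 0.56 in M3, 3.62 ± 0.55 in M4 and 4.4 ± 0.57 in M4.1. The highest edgeR adjusted p among the stages was 6.53e-06, in M4. These are whole-tissue libraries, in which more cells of a type and more RNA per cell cannot be told apart.

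IL1B, the inducible IL-1 of myeloid cells and keratinocytes, had the largest standard errors of the members. The M0 libraries held 2.33, 1.53, 1.87, 3.77 and 6.44 CPM. M1 held 310, 21.2, 48.6, 17.3 and 233 CPM, M2 held 200, 68.2, 157, 63.5 and 8.16, and M4.1 held 46.0, 89.1, 299 and 264. All of these lay above the M0 range, as did 14.8% of all genes in M1, 15.8% in M2 and 17.5% in M4.1. M3 held 156, 85.5, 49.0, 101 and 1.85 CPM, so that replicate 5 sat inside the M0 range. M4 was split, with 96.7 and 97.3 CPM in replicates 2 and 4 and 2.8, 4.27 and 6.79 in replicates 1, 3 and 5, of which the first 2 lay inside the M0 range. Its log2 fold change was 5.28 ± 1.12 (SE) in M1, 4.94 ± 1.11 in M2, 4.61 ± 1.1 in M3, 3.70 ± 1.08 in M4 and 5.75 ± 1.16 in M4.1. The edgeR adjusted p ran from 2.69e-04 in M4.1 to 0.0069 in M4. With limma-voom, which models log values, the calls in M3 (4.09, adjusted p = 0.069) and M4 (2.61, adjusted p = 0.29) were lost. Without M1 replicate 1 the M1 value was 4.63, and without M4 replicate 4 the M4 value was 3.11, both still past the threshold.

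IL1RN, the receptor antagonist of both IL-1 forms, was detected in control skin and rose in every stage with the smallest standard errors of the members. M0 held 71.2, 108, 141, 85.8 and 131 CPM. M1 held 653, 243, 416, 160 and 561 CPM, M2 held 362, 346, 459, 526 and 509, and M3 held 398, 388, 448, 745 and 482. M4 held 427, 562, 573, 559 and 525 CPM, and M4.1 held 337, 529, 757 and 655. Every lesion library was above every control library, the nearest being M1 replicate 4. Of all genes, 12.6% to 17.5% lay wholly above M0 in a stage. The log2 fold change was 1.92 ± 0.29 (SE) in M1, 2.04 ± 0.29 in M2, 2.2 ± 0.29 in M3, 2.3 ± 0.29 in M4 and 2.41 ± 0.30 in M4.1, with edgeR adjusted p of at most 4.89e-06.

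The balance of antagonist and agonist was read inside each library as the log2 ratio of their counts, with 0.5 added to each count. Since the reads of 2 genes are not captured alike, only the change of a ratio between groups is used, not its level. The mean IL1RN to IL1A ratio was 4.87 ± 0.93 (SD, n = 5) in M0, and 2.91 ± 0.71 in M1, 2.91 ± 1.02 in M2, 3.18 ± 0.73 in M3 and 3.70 ± 0.94 in M4 (each n = 5), and 2.76 ± 0.32 in M4.1 (n = 4). The shift from M0 was -1.96 in M1, -1.95 in M2, -1.68 in M3 and -2.10 in M4.1, each past the threshold in a two-sided exact permutation test, with adjusted p of 0.026, 0.033, 0.041 and 0.026 over the 18 ratio tests made. In M4 the shift was -1.17 and did not pass (exact permutation test, adjusted p = 0.098). So the antagonist rose, and by the mean ratio it rose less than IL1A did, with a shift that passed in those 4 stages. The M2 call was lost without any 1 of 7 libraries (M0 replicates 2 to 4 and M2 replicates 1 to 4) and the M3 call without any 1 of 6 (M0 replicates 2 to 4 and M3 replicates 1, 2 and 4), and M4 passed without M4 replicate 1, at -1.46. By the difference of medians no ratio of any pair of genes passed in any stage, with adjusted p of at least 0.057 in exact permutation tests, although that value in M1 was -2.71. Different splits of so few libraries share the same medians, which keeps the p of this test from being small. The IL36RN to IL36G ratio in M3, which did not overlap M0, also gave 0.057 in it. The test by medians therefore cannot decide here.

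The IL1RN to IL1B ratio fell in M1 by 2.75, in M2 by 2.44 and in M4.1 by 3.16 on the log2 scale (exact permutation test, adjusted p = 0.018, 0.048 and 0.018). In M3 the shift was -1.69 (adjusted p = 0.23 by the same exact test) and in M4 it was -0.09 (adjusted p = 0.98). Per library, M0 held ratios of 4.89, 6.06, 6.16, 4.48 and 4.32, and M4 held 7.16, 2.54, 7.01, 2.52 and 6.24. The 3 M4 libraries low in IL1B were thus above every M0 library and the other 2 below every one, so the M4 mean describes neither set. M3 replicate 5, with 7.86, was likewise above M0, while the other M3 libraries lay between 1.35 and 3.19, and without it the M3 shift was -2.78 and passed. The M2 call was lost without any 1 library other than M2 replicate 5, without which the shift was -3.23. With 5 libraries against 5 or 4, the exact permutation test of a single ratio cannot give a p under 0.0079.

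**Figure D2:**
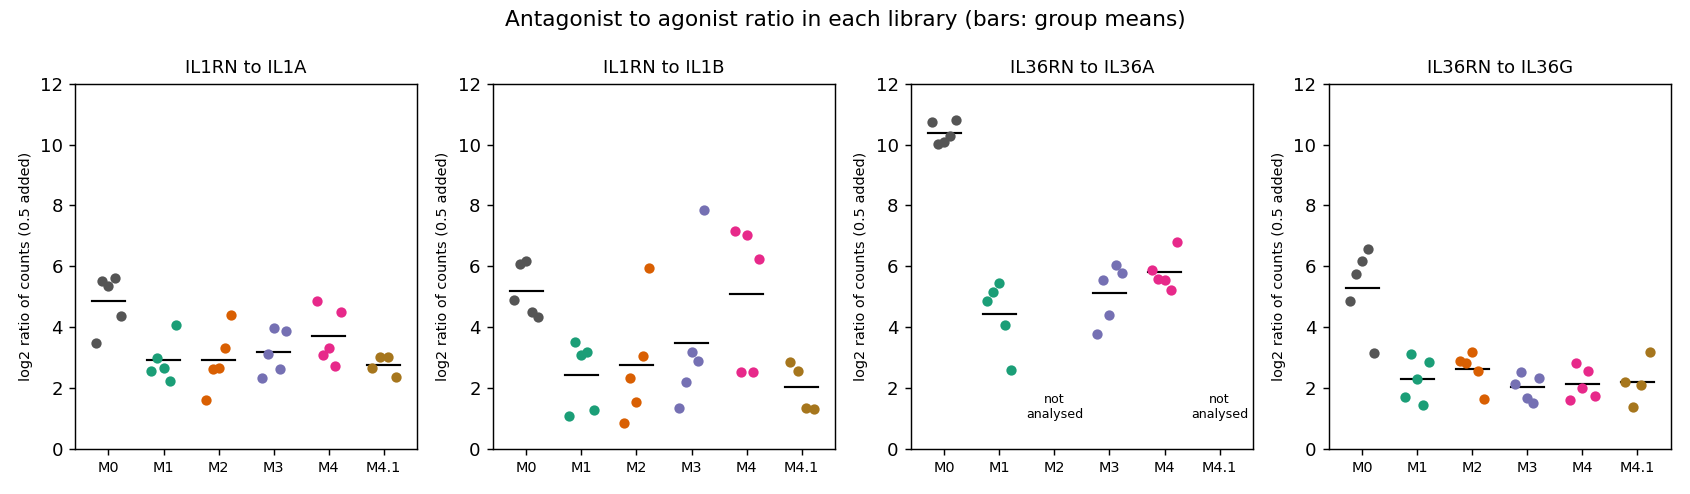
Log2 ratio of antagonist to agonist counts in each library, 0.5 added to each count, by group; points are libraries and bars are group means. The IL36RN to IL36G ratio of M0 (3.14 to 6.57) lies above nearly all lesion libraries, and the IL1RN to IL1B ratio of M4 falls into a high and a low set.

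IL36G, the IL-36 form of stressed keratinocytes, had its highest means in M3 and M4. M0 held 4.51, 1.72, 1.45, 0.904 and 18.1 CPM, replicate 5 standing above the rest. M3 held 14.5, 58.4, 41.1, 189 and 126 CPM, and M4 held 95.8, 42.0, 163, 75.3 and 176. All M4 libraries and 4 of the 5 M3 libraries were above the M0 range, where 14.4% of all genes lay wholly above it in M4. M1 held 48.8, 5.35, 68.1, 40.4 and 0.997 CPM, M2 held 3.68, 12.8, 2.41, 28.2 and 97.3, and M4.1 held 20.3, 55.1, 19.9 and 5.09. These 3 stages overlapped the M0 range, with 3 of 5, 2 of 5 and 3 of 4 libraries above it. The log2 fold change was 3.99 ± 1.01 (SE) in M3 and 4.36 ± 1.02 in M4, with edgeR adjusted p of 0.0024 and 0.0010. Without M0 replicate 5 these values were 5.25 and 5.62, and over all libraries left out in turn they ran from 3.46 and 4.06 upwards. It was 2.60 ± 0.98 in M1 and 2.4 ± 0.98 in M2, with edgeR adjusted p of 0.033 and 0.049. Both of these calls were lost when any 1 of 6 libraries was left out, among them each of M0 replicates 1 to 4. In M1 the others were M1 replicates 1 and 3, and in M2 they were M2 replicates 4 and 5, with a lowest value of 1.14 in M2, without M2 replicate 5. Without M0 replicate 5 the values were 3.85 in M1 and 3.66 in M2. In M4.1 the value was 2.24 ± 1.01 (adjusted p = 0.080), and without M0 replicate 5 it was 3.49, past the threshold.

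IL36A, the other IL-36 agonist measured, had no count in any of the 5 M0 libraries. M1 held 5.37, 1.23, 7.45, 6.31 and 1.2 CPM, M3 held 4.54, 7.10, 6.04, 8.10 and 11.5, and M4 held 4.79, 6.01, 13.8, 12 and 5.09. Every library of these 3 stages had counts of the gene. Against a floor of 3 counts over the M0 group, the mean was at least 41.3-fold higher in M1, 71.4-fold higher in M3 and 79.8-fold higher in M4. With no count in M0, the gene could pass a filter on low counts only through the stage where it is present, so these values are a description and no test is given.

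IL36RN, the antagonist of the IL-36 receptor, was present in control skin and lay within or around its control range in 3 stages. M0 held 133, 97.9, 113, 92.7 and 160 CPM. M1 held 160, 47.7, 334, 109 and 7.78 CPM, M2 held 27.9, 91.3, 22.6, 166 and 305, and M4.1 held 92.7, 142, 85.4 and 47.5. In each of these stages libraries lay on both sides of the M0 mean of 119 ± 27.8 CPM (SD, n = 5). M3 held 64.0, 341, 131, 542 and 639 CPM, and M4 held 291, 295, 653, 448 and 585. All M4 libraries were above all M0 libraries, as was so for 14.4% of all genes, and 3 of the 5 M3 libraries were. The log2 fold change was 1.93 ± 0.69 (SE) in M4 (edgeR, adjusted p = 0.024), a call that was lost without M0 replicate 2, M0 replicate 4 or M4 replicate 3, with values from 1.76 to 2.05 over all libraries left out in turn. It was 1.52 ± 0.68 in M3 (adjusted p = 0.076), 0.14 ± 0.67 in M1, 0.03 ± 0.67 in M2 and -0.38 ± 0.71 in M4.1, none past the threshold. In a fit of M3 and M0 alone the M3 value, 1.51, had an adjusted p of 0.027, and the signs in M1 and M2 turned under other settings.

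The IL36RN to IL36G ratio was lower than in M0 in every stage. Its mean was 5.30 ± 1.36 (SD, n = 5) in M0, 2.28 ± 0.72 in M1, 2.62 ± 0.59 in M2, 2.04 ± 0.44 in M3 and 2.14 ± 0.53 in M4 (each n = 5), and 2.21 ± 0.75 in M4.1 (n = 4). The shift was -3.02, -2.68, -3.26, -3.16 and -3.09 in the order M1 to M4.1, with adjusted p of 0.018, 0.026, 0.018, 0.018 and 0.033 in exact permutation tests. M0 replicate 5, the control library with most IL36G, had the lowest control ratio, 3.14, and 1 library each of M2 (3.17) and M4.1 (3.2) was above it. The M4.1 call was lost without any 1 of 7 libraries (M0 replicates 1 to 4 and M4.1 replicates 1 to 3), with shifts from -3.63 to -2.78 over all libraries left out. In M1, M3 and M4 every lesion library had an IL36RN to IL36A ratio below every M0 library, but the M0 values are set by the 0.5 added to the zero counts of IL36A, so no size or test of that ratio is given. The 18 ratio tests include its 3. With p adjusted over the other 15, an alternative chosen after seeing the data, every call of the other ratios stood (highest adjusted p among them 0.0496, exact permutation tests).

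IL33, an alarmin kept in the nucleus of epithelial and vessel cells, had its highest means in M1 and M2. M0 held 46.0, 26.1, 28.9, 58.0 and 48.9 CPM. M1 held 233, 416, 269, 130 and 292 CPM, and M2 held 234, 452, 179, 299 and 84.9. None of these overlapped the control range, and 14.8% of all genes in M1 and 15.8% in M2 likewise lay wholly above it. M3 held 263, 123, 276, 79.9 and 49.4 CPM, M4 held 54.3, 317, 13.1, 76.0 and 38.5, and M4.1 held 50.2, 56.4, 209 and 481. In M4 replicate 3 was below every control library and replicates 2 and 4 were above, and in M4.1 replicates 1 and 2 lay inside the control range. The log2 fold change was 2.69 ± 0.67 (SE) in M1, 2.59 ± 0.67 in M2, 1.93 ± 0.66 in M3 and 2.26 ± 0.69 in M4.1, with edgeR adjusted p of 0.0020, 0.0028, 0.021 and 0.010. It was 1.26 ± 0.65 in M4 and did not pass (adjusted p = 0.12), and without M4 replicate 2, the library with 317 CPM, it was 0.13. The M4.1 value was 1.32 and no longer past the threshold without M4.1 replicate 4. The M3 call was lost without M0 replicate 2, M3 replicate 1 or M3 replicate 3, with values from 1.62 to 2.16.

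IL18, the interferon-gamma inducing cytokine that keratinocytes store as a precursor, was measured on few counts, 58 over the 5 M0 libraries. M0 held 1.09, 1.53, 1.87, 1.96 and 3.76 CPM, and the lesion libraries ran from 2.4 to 11.9 CPM. All libraries of M1 and M4.1 were above the M0 range, as were 4 of 5 in M2, 3 of 5 in M3 and 4 of 5 in M4. Of all genes, 14.8% lay wholly above that range in M1 and 17.5% in M4.1. On the log2 scale the fold change was 1.85 ± 0.36 (SE) in M1, 1.51 ± 0.36 in M2, 1.33 ± 0.37 in M3, 1.34 ± 0.37 in M4 and 1.95 ± 0.37 in M4.1. Each stage passed, with edgeR adjusted p of at most 0.0052.

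**Figure D3:**
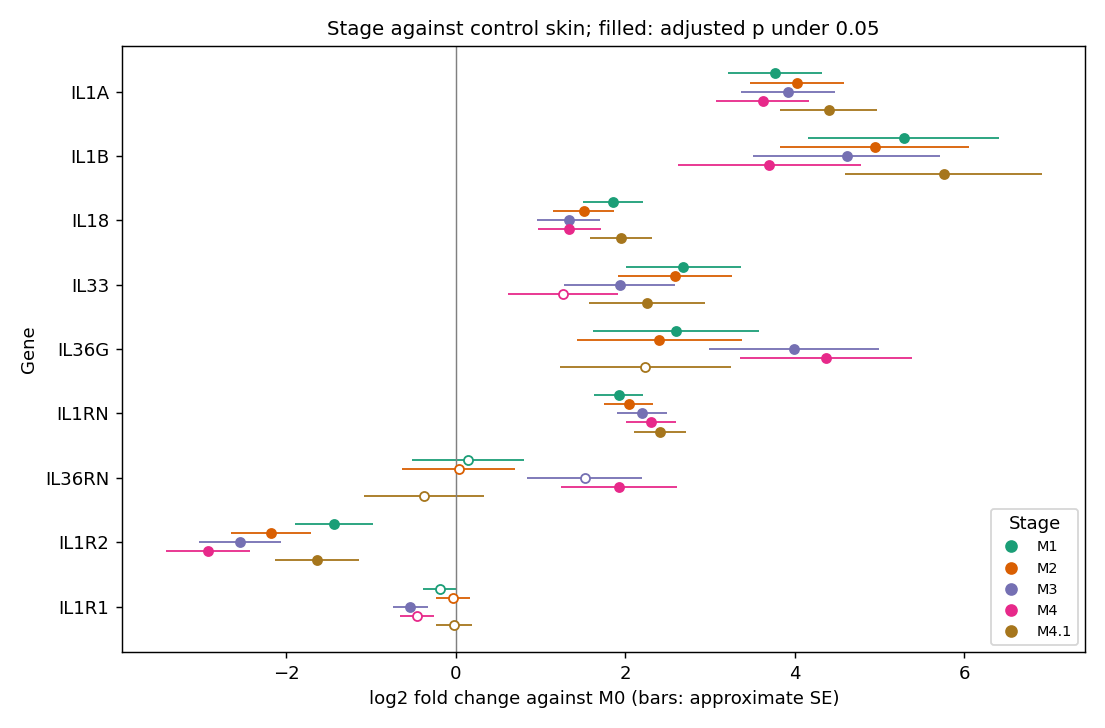
Log2 fold change of each stage against M0 with its approximate SE, for 7 cytokine genes and the IL-1 receptors IL1R1 and IL1R2; filled points have an edgeR adjusted p under 0.05. The agonists and IL1RN lie to the right of 0, IL36RN spreads around 0 with M4 alone filled, and the decoy receptor IL1R2 lies between -1.44 and -2.93.

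Among the lesion stages themselves no member passed the edgeR test of any difference between the 5 stages, where 2.58% of all genes did. IL36RN had an unadjusted p of 0.0070 there and an adjusted p of 0.10, and it was the single member with an unadjusted p under 0.05. In M4.1 against M4, where 4.3% of all genes passed, no member passed and 3 had an unadjusted p under 0.05. IL36RN differed by a log2 value of -2.31 ± 0.76 (edgeR, adjusted p = 0.067). DESeq2 (adjusted p = 0.028) and an edgeR fit of these 2 groups alone (adjusted p = 0.020) called it. IL36G differed by -2.13 ± 0.98 (adjusted p = 0.18) and IL1B by 2.06 ± 0.97 in the other direction (adjusted p = 0.19). In M4 against M2, where 3.11% of all genes passed, IL36RN differed by 1.89 ± 0.69 (edgeR, adjusted p = 0.098), which DESeq2 called at 0.048. IL36G differed there by 1.96 ± 0.90 and IL33 by -1.33 ± 0.64, with adjusted p of 0.18 and 0.21. Without M2 replicate 5 the M4 against M2 values of IL36RN and IL36G were 2.56 and 3.22, and without M4 replicate 2 that of IL33 was -2.46, each then past the threshold. In M4.1 against M4, IL33 was at 1, and at 2.13 and past the threshold without M4 replicate 2. A call in one stage and not in another is therefore not a difference between those stages.

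Over the 24 lesion libraries the members fell into patterns of their own. Correlations were taken on log2 CPM over 21 pairs, with permutation p adjusted over the 21. IL36G and IL36RN went together most closely (Pearson r = 0.968, Spearman rho = 0.957, adjusted permutation p = 2.1e-04 for both), and r was 0.95 without the 2 libraries farthest from the median of IL36G. With each stage's mean removed, r was 0.954, so agonist and antagonist of this branch varied together inside stages too. IL1A and IL1B also went together (r = 0.748, rho = 0.772, adjusted permutation p = 3.15e-04 and 2.1e-04), with r = 0.651 without the 2 farthest libraries and 0.725 with stage means removed.

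IL36G varied inversely with IL33, IL18 and IL1B, while no inverse relation with IL1A passed the test. For IL36G, r was -0.663 with IL33, -0.592 with IL18 and -0.586 with IL1B, with rho of -0.693, -0.570 and -0.559. The adjusted permutation p of the Pearson values was 0.0030, 0.0085 and 0.0085, and that of the Spearman values 0.0028, 0.017 and 0.017. Without the 2 farthest libraries r was -0.600, -0.539 and -0.540, and with stage means removed it was -0.549, -0.550 and -0.493, with adjusted permutation p of 0.026, 0.026 and 0.049. Permutation with stage means removed ran freely over all lesion libraries and made no allowance for those means. Its p are therefore too small, for IL36RN below as well, and 0.049 is not read as a pass. With IL1A, r was -0.233 for IL36G and -0.176 for IL36RN (adjusted permutation p = 0.34 and 0.43). For IL36RN, r was -0.607 with IL33, -0.518 with IL18 and -0.581 with IL1B, past the threshold, but with stage means removed the adjusted permutation p was 0.078, 0.083 and 0.065. M1 replicate 5 shows the pattern at one end, with 233 CPM of IL1B and 0.997 of IL36G, and M4 replicate 3 at the other, with 4.27 and 163. For IL1RN no such relation passed with these genes: its r with IL1A was 0.384 and with IL1B 0.275 (adjusted permutation p = 0.11 and 0.27), and with IL36RN it was 0.215. These values share the library and its depth, and the labels give no farm or day by which to split them.

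**Figure D4:**
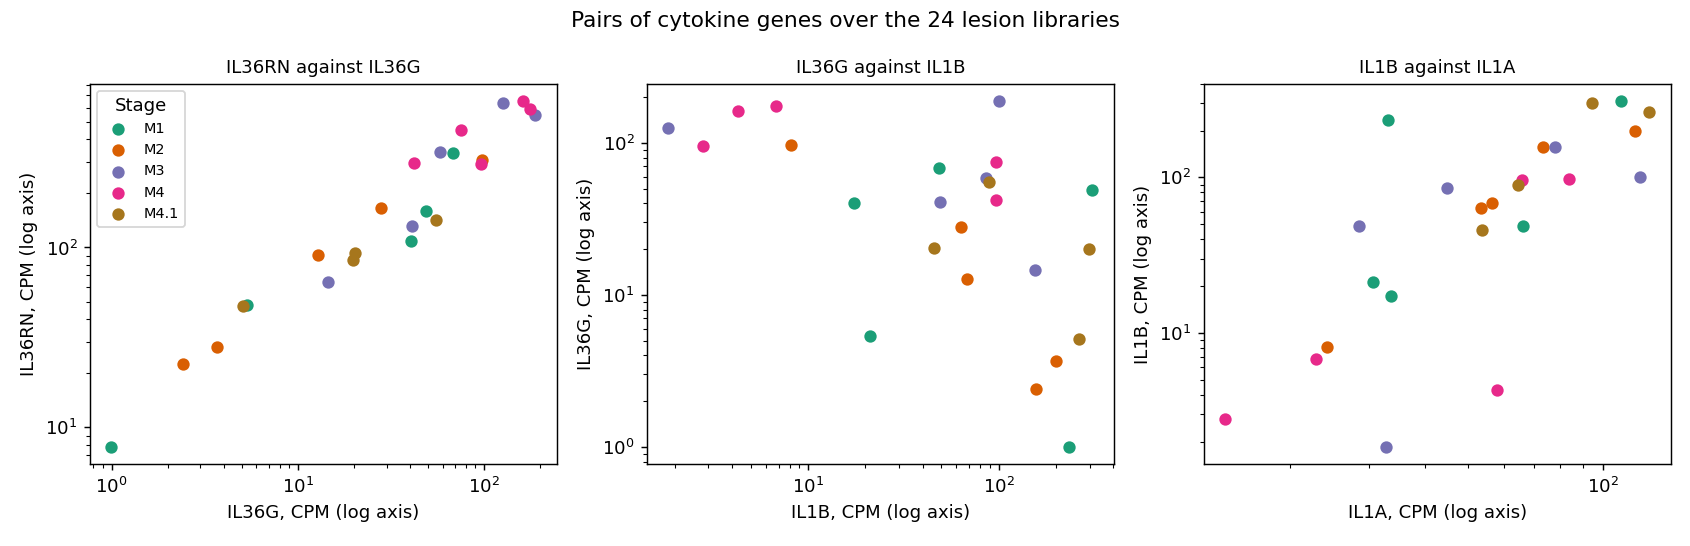
Levels of 3 pairs of cytokine genes over the 24 lesion libraries, in CPM on log axes, coloured by stage. IL36RN rises with IL36G along one line over all stages (r = 0.968), IL36G is low where IL1B is high (r = -0.586), and IL1B rises with IL1A (r = 0.748).

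The genes whose levels most resembled each member over the lesion libraries, among 9836 genes with a symbol, were as follows. For IL1B they were RUBCNL (r = 0.956), the neutrophil attractant CXCL8 (0.934) and the phosphodiesterase PDE4B (0.930). For IL1A they were CXCL2 (0.893) and GRO1 (0.830), both chemokines, and the urokinase receptor PLAUR (0.802). For IL36G they were IL36RN, the cornified envelope gene CNFN (0.953) and the desmosomal cadherin DSC1 (0.942), and for IL36RN they were IL36G, STAP2 (0.956) and CNFN (0.942). IL1RN had no gene as close, the nearest being TBL2 (0.708), CKAP4 (0.684) and CNKSR1 (0.654). For IL36A, over the 15 libraries of M1, M3 and M4, they were LYZ1 (0.897), PLEKHA7 (0.893) and CHI3L2 (0.872).

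Markers of the upper, differentiating epidermis also differed in level between libraries and stages. Of 7 such markers 6 were measured (KRT1, KRT10, IVL, LOR, DSC1 and DSG1). Their summed level ran from 24043 to 39623 CPM in M0, 2013 to 52234 in M1, 2085 to 69589 in M2, 11545 to 171729 in M3, 44034 to 218149 in M4 and 2428 to 29104 in M4.1, where LOR was at 0 in all 4 libraries. The median of this sum was highest in M4, at 71852 CPM, and was 6957 in M4.1 and 28476 in M0. The markers did not all move alike: IVL was called higher in all 5 stages and DSG1 in M3 and M4, while LOR was called lower in M1 and M4.1. Markers of basal keratinocytes were all measured, 5 of 5 (KRT5, KRT14, TP63, COL17A1 and ITGB4). They summed to 8139 to 11084 CPM in M0 and 25788 to 55448 over all lesion libraries. Of these, KRT5 and KRT14 were called higher in all 5 stages and TP63 in M2 alone. COL17A1 was called lower in M4.1, and ITGB4 was called in no stage. The part of these epidermal markers in the cytokine levels was not tested. Of 11 neutrophil markers, 5 were in all tables (S100A8, S100A9, S100A12, MMP9 and FCGR3A). Their sum was 797 to 4005 CPM in M0 and 16448 to 57927 over all lesion libraries, with a median of 42041 in M4 and 25936 in M4.1, and the S100 genes among them are made by keratinocytes too. CSF3R, a receptor found on neutrophils, was listed in the M1, M2 and M4.1 tables and not in those of M3 and M4. All tables share the M0 libraries, so the gene was kept only through those stages, and no test of it is given. The summed level of 8 measured macrophage and monocyte markers was 46.5 to 166 CPM in M0 and 45.9 to 305 in lesions. Markers of hair follicle and sebaceous gland, 8 of 10 measured, summed to 5306 to 6038 CPM in M0 and 825 to 2004 in lesions. Of these, 7 were called lower in all 5 stages, while SCD was called higher in all 5. The part of these differences in the cytokine levels was not tested either.

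Other ligands of the family went the opposite way. IL37, in humans a cytokine that dampens inflammation, held 25, 22.9, 27.2, 21.3 and 13.2 CPM in M0. No lesion library held more than 5.53 CPM, and it was at 0 in 4 of 5 M1 libraries, 2 of 5 in M2, 2 of 5 in M3, 3 of 5 in M4 and 2 of 4 in M4.1. IL1F10, also called IL-38 and in humans likewise described as an antagonist, held 15.6, 16.2, 34.7, 19.6 and 10.6 CPM in M0 and at most 3.69 in any lesion library. Every lesion library of both genes lay below every M0 library, as was so, in the lower direction, for 15.4% of all genes in M1, 14.9% in M2, 13.2% in M3, 15.1% in M4 and 18.3% in M4.1.

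IL37 and IL1F10 passed the filter on low counts only through M0, where they are high. Their values are therefore a description, and no test of them is given. IL37 was lower in every stage, with fitted log2 values of -5.82 ± 0.72 (SE) in M2, -3.84 ± 0.62 in M3 and -5.85 ± 0.75 in M4. Without the lesion library with most counts the values were -6.55 in M2 (replicate 5) and -4.98 in M3 (replicate 4), and in M4 replicate 5 held 4 of the 6 counts. IL1F10 was lower as well, with fitted log2 values of -6.55 ± 0.88 in M2, -4.87 ± 0.79 in M3 and -4.69 ± 0.77 in M4. Replicate 5 held 3 of its 4 counts in M2 and 8 of its 10 in M3, so these values rest largely on 1 library. In M4.1 all 8 of its counts were in replicate 3, and no fold is given there. Where a stage held 1 to 3 counts of a gene, a ratio with its exact 95% counting interval is given in place of a fitted value. For IL37, M0 was 451 times M1 (80.7 to 17849, 1 count in M1) and 136 times M4.1 (46.3 to 661, 3 counts). For IL1F10, M0 was 389 times M1 (69.6 to 15404, 1 count in M1). The intervals cover counting error only. The order of protein-coding genes was taken from RefSeq's annotation of assembly ARS-UCD2.0, a later version than the one the files use. There IL37, IL36G, IL36A, IL36B, IL36RN, IL1F10 and IL1RN follow each other on one chromosome with no other protein-coding gene between them. Genes that were higher and genes that were lower in lesions are thus next to each other in that order. IL36B was not analysed here.

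**Figure D5:**
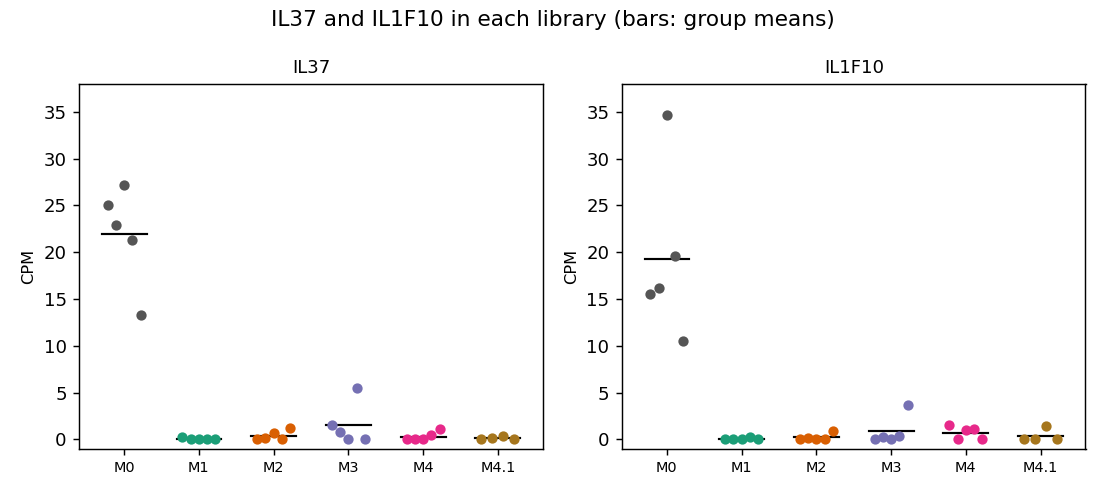
Levels of IL37 and IL1F10 in every library, in CPM on a linear axis, by group; points are libraries and bars are group means. The M0 libraries lie between 10.6 and 34.7 CPM and all lesion libraries at 5.53 CPM or less.

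Of 10 receptors and binding proteins of these cytokines, 3 were measured. IL1R2, the decoy receptor, ranged from 66.2 to 106 CPM in M0. In lesions IL1R2 ranged from 10.9 to 64.6 in M1, 6.35 to 26.3 in M2, 5.53 to 22.4 in M3, 3.28 to 25.2 in M4 and 18.9 to 35.2 in M4.1, all below M0. Of all genes, 13.2% to 18.3% lay wholly below M0 in a stage. IL1R2 fell in every stage, with log2 values of -1.44 ± 0.46 (SE) in M1, -2.18 ± 0.47 in M2, -2.55 ± 0.49 in M3, -2.93 ± 0.50 in M4 and -1.64 ± 0.50 in M4.1, and edgeR adjusted p of at most 0.012. Without M4 replicate 4 the M4 value was -3.55. IL1R1, the signalling receptor, averaged 60.8 ± 9.39 CPM (SD, n = 5) in M0 and fell in M3 (-0.54 ± 0.20, adjusted p = 0.038, a call lost without any 1 of 6 libraries, M0 replicates 1 to 3 and M3 replicates 2, 3 and 5). Its other log2 values were -0.19 in M1, -0.03 in M2, -0.46 in M4 and -0.02 in M4.1. SIGIRR, a receptor that damps signalling by the family, passed in no stage, with log2 values of 0.12, -0.01, -0.56, -0.25 and -0.49 in the order M1 to M4.1. The median of the 3 receptors lay between -0.56 and -0.03 in the 5 stages. The other 7, among them the IL-33 receptor IL1RL1, the IL-36 receptor IL1RL2 and the shared chain IL1RAP, were not analysed here.

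Of 21 genes that process or release these cytokines 7 were measured, and 5 rose in each of M1, M2, M3 and M4.1 and 3 in M4, where 20.2% to 21.9% of all genes were higher and 18.9% to 21.1% lower. PYCARD, the inflammasome adaptor, rose by log2 values of 1.16, 0.94, 0.66, 0.59 and 0.93 in the order M1 to M4.1, and CASP4, the caspase of the non-canonical inflammasome, by 1.4, 1.19, 1.01 and 1.15 in M1, M2, M3 and M4.1. CASP4 was at 0.61 in M4 (edgeR adjusted p = 0.10). The calpain CAPN2 rose in all 5 stages by 0.60 to 0.88, and CASP8, an apoptotic caspase that can also cut IL1B, by 0.56 to 0.75 in all but M4, where it was at 0.38. PYCARD lost its M4 call without any 1 of 7 libraries (M0 replicates 1, 3 and 4 and M4 replicates 1 to 4) and its M3 call without M0 replicate 4 or M3 replicate 4. CASP8 lost its M3 call without M0 replicate 2, M0 replicate 4 or M3 replicate 1 and its M4.1 call without M4.1 replicate 3 or 4, and CASP4 passed in M4 without M4 replicate 1 (0.77). The remaining call of the list in the other direction was GSDMA, a pore protein of the upper epidermis, named after its values were seen, at -2.58 in M1 and -2.46 in M4.1. The median of the 7 lay between 0.59 and 0.88. CASP1 and NLRP3 were not analysed here.

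Of 23 genes that carry the signal from these receptors 22 were measured. They rose in 7, 7, 6, 7 and 6 cases and fell in 2, 1, 3, 3 and 3 in the order M1 to M4.1, with a median log2 value between 0.15 and 0.22, beside the shares of all genes given above. The p38 kinase MAPK14 rose from 9.33 ± 3.18 CPM (SD, n = 5) in M0 by log2 values of 1.79 to 2.31, and FOS, an AP-1 subunit, by 2.34 to 3.0. The receptor-associated kinase IRAK1 rose by 0.89 to 1.14 and the TAK1 kinase MAP3K7 by 0.80 to 0.95 in the 5 stages. IRAK2, a relative of IRAK1 named after its values were seen, fell in all 5, with log2 values from -2.19 to -1.17.

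Of 24 genes known to be induced by this signalling, or to feed back on it, 18 were measured. They rose in 12, 14, 12, 11 and 13 cases in the order M1 to M4.1 and fell in 1 in each stage, LCN2, beside 20.2% to 21.9% of all genes higher and 18.9% to 21.1% lower, with a median between 1.52 and 1.91 against a median over all genes near 0. PTGS2, the inducible prostaglandin synthase, rose from 2.75 ± 0.73 CPM (SD, n = 5) in M0 to means of 266 in M1, 488 in M2, 205 in M3, 106 in M4 (each n = 5) and 657 in M4.1 (n = 4), log2 values of 5.26 to 7.89. Without M3 replicate 1 its M3 value was 5.46, and without M4 replicate 4 its M4 value was 4.66. S100A12 rose by 3.39 to 3.82, S100A8 by 3.47 to 4.45 and S100A9 by 3.07 to 4.60, antimicrobial calcium-binding proteins that also stand among the neutrophil markers. Without M0 replicate 5 the S100A9 values were 3.76 to 5.3. LCN2, an iron-binding antimicrobial protein named after its values were seen, fell in all 5 stages, with log2 values from -3.70 to -2.78. The comparison cannot say whether these genes moved because of the cytokines, which was not tested.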

How the data were processed

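RNA from skin biopsies was made into 3′ end libraries (QuantSeq FWD), per the labels' protocols, so a count reads transcript ends and is not scaled to gene length. Reads were trimmed with cutadapt 2.8, checked with FastQC 0.11.7, aligned with STAR and quantified with RSEM 1.3.1 against ARS-UCD1.2, per the submitters' processing notes, which also name edgeR. Whether RSEM's values were rounded is not given in the sources used here. The deposited tables hold whole-number counts per gene for M0 and for a single stage, beside the authors' normalized signal and p-value columns, which were not used here; each table lists only the genes the authors kept, 10833 to 11303.

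The 5 tables were joined on 10629 genes listed in all, the M0 counts being identical in each. A single edgeR 4.0.16 quasi-likelihood fit (R 4.3.3) covered all 29 libraries with TMM factors (0.631 to 1.29) after filterByExpr, which left 10371 genes. A gene missing from some tables was fitted in its own. Of such genes the text names IL36A, with no count in M0, and CSF3R, and both are described without a test. IL37 and IL1F10, listed in all tables, are described without a test as well. CPM used TMM-scaled library sizes. A prior count of 2 was used for the log2 CPM of the correlations only, and fitted fold changes kept edgeR's default. SE is the fold change divided by the square root of its F statistic. Ratios were tested with exact permutation tests written in Python 3.11.15, over 18 tests in place of the planned 20, since IL36A was not listed in M2 and M4.1. Ranks and exact counting intervals used scipy 1.17.1. Correlations used 100000 permutations on log2 CPM. The code was tested on simulated data.

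Alternatives were RLE size factors, no filter, a filter of 10 counts in 10 libraries, DESeq2 1.42.0, limma-voom (limma 3.58.1), a robust fit, fits of 2 groups, a replicate block, other values added to ratios, medians, and leaving out each library. No 2 libraries of a group agreed within sampling noise (chi-square per degree of freedom of at least 10.4). The members and gene lists were chosen with earlier results of these data known. The text names all members, per list the 4 genes with the smallest adjusted p, all measured receptors, and the 3 genes most like each of IL1A, IL1B, IL1RN, IL36A, IL36G and IL36RN. No sequence is printed, as none was at hand.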

Additional observations from a re-analysis of the deposited data

Results flagged for a closer look

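Of 79 groups of 4 to 5 libraries tested, 11 held a library standing apart from the others of its group by Dixon's criterion, which chance gives in about 1 in 20 groups. Among the members these were IL1RN in M3 replicate 4 (745 CPM, the others 388 to 482), IL33 in M4 replicate 2 (317 CPM, the others 13.1 to 76.0), IL36G in M0 replicate 5 (18.1 CPM, the others 0.904 to 4.51) and IL36G in M2 replicate 5 (97.3 CPM, the others 2.41 to 28.2). The IL1RN to IL1B log2 ratio of M3 replicate 5 was 7.86, where the others lay between 1.35 and 3.19.

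For IL37 the libraries were M1 replicate 1 (0.268 CPM, the others 0) and M3 replicate 4 (5.53 CPM, the others 0 to 1.51). For IL1F10 they were M1 replicate 4 (0.315 CPM, the others 0), M2 replicate 5 (0.907 CPM, the others 0 to 0.178), M3 replicate 5 (3.69 CPM, the others 0 to 0.368) and M4.1 replicate 3 (1.42 CPM, the others 0). The M1 values of both genes are single counts.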

How the results depend on the processing

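The number of members called against M0 stayed within 1.5 times the reported count in every stage under all alternatives run. Between stages, where no member was called, DESeq2 called 1 in M4.1 against M4 and 1 in M4 against M2, and the fit of 2 groups called 1 in M4.1 against M4, IL36RN in each case. Leaving out single libraries gave 0 to 1 in M4.1 against M4 (above 0 without M4 replicate 2), 0 to 2 in M4 against M2 (without M2 replicate 5 or M4 replicate 2) and 0 to 1 for any difference among the stages (without M1 replicate 3, M2 replicate 5 or M3 replicate 1). With a difference of medians in place of means, 0 stages were called for each of the 4 ratios. Different splits of so few libraries share the same medians, so that test cannot give a small p and does not decide. Leaving out single libraries gave 2 to 5 stages for IL1RN to IL1A, the lowest without M0 replicates 2, 3 or 4.

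Signs turned for values that had not passed. IL36RN in M1 was -0.72 with limma-voom. In M2 it was -0.0033 with RLE size factors, -9.9e-06 with the stricter filter, -3.8e-04 with DESeq2, -0.61 with limma-voom and -0.20 with the replicate block. The M4 shift of the IL1RN to IL1B ratio was 1.36 by medians. With single libraries left out, IL36RN ran from -0.56 to 0.45 in M1 and -0.63 to 0.28 in M2, that M4 ratio shift from -0.60 to 0.56, IL1R1 from -0.174 to 0.050 in M2 and -0.214 to 0.0409 in M4.1, and SIGIRR from -0.0521 to 0.276 in M1 and -0.275 to 0.155 in M2. IL18 in M4 against M2 ran from -0.34 to 0.11 and IL1RN in M4.1 against M4 from -0.0595 to 0.291. The cause was not tested.

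Same-numbered libraries of different groups did not vary together on average (mean r = -0.006 over 70 pairs, from -0.36 to 0.41). Of 29 libraries, 7 correlated best with their own number. The numbers were therefore not used as pairs in the main fit, but this check cannot exclude that some of them share an animal, farm or day. Over all genes, 323 were called in M4 against M2, 446 in M4.1 against M4 and 268 among the stages; the counts were 62, 46 and 1 with the replicate block and 883, 963 and 633 with DESeq2, and with limma-voom they were 168 in M4.1 against M4 and 3 among the stages. With a replicate block, IL36G lost its call in M2 (2.25, adjusted p = 0.068), passed in M4.1 (3.08, adjusted p = 0.025), and IL1R1 lost its call in M3 (adjusted p = 0.051). IL36G in M2 was also lost with RLE size factors, the stricter filter, limma-voom, the robust fit and the 2-group fit, and in M1 with limma-voom and the robust fit. Counts of IL18, IL37 and IL1F10 are low, and 1 to 25 counts stand behind each stage's IL37 value.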
